A study of Homo sapiens with 16 samples.

Results

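The collagen and laminin genes were followed through 6 lines of SW480, an established human colon adenocarcinoma cell line, in which the LIM-domain protein Ajuba (gene AJUBA) had been lowered or raised. The 56 genes were taken by name, as every protein-coding row whose GENCODE symbol is that of a collagen alpha chain (44 genes, COL1A1 to COL28A1) or of a laminin alpha, beta or gamma chain (12 genes, LAMA1 to LAMC3). They make up 56 of the 19578 protein-coding rows, and of 66023 rows in all, in the table of mRNA-seq read counts.

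Parental was unmodified SW480 (n = 2) and shScrambled carried a random, non-targeting shRNA (n = 2). The knockdown (KD) lines were shAjuba1, with an shRNA against the coding region of the Ajuba transcript (n = 3), and shAjuba2, with an shRNA against a non-coding region (n = 3). Ajuba OE carried a lentiviral construct with tagged Ajuba behind a CMV promoter (n = 3), and Control carried the construct without exogenous Ajuba (n = 3). Every line but Parental was transduced with lentivirus and selected with puromycin as a stable line, so each condition is 1 line, and the study calls its replicates technical. All p-values below therefore measure the spread between samples of 1 line, not between separately made lines. Levels are given in RPM, the gene's count divided by the sample's total count, times 1000000.

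Collagens are proteins of 3 alpha chains wound into a triple helix, and for several types the chains come from different genes. Laminins are cross-shaped proteins of 1 alpha, 1 beta and 1 gamma chain. Type IV collagen and laminins form the 2 networks of the basement membrane, the sheet on which epithelial cells sit, and integrins, dystroglycan and discoidin domain receptors bind them. In colon tissue most fibrillar collagen is made by fibroblasts, whereas epithelial cells make laminin chains and some basement membrane collagens.

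Total counts ran from 30132396 to 69684675 per sample. AJUBA fell in shAjuba1 (82.5 ± 1.26 RPM in shScrambled, 50.1 ± 3.12 in shAjuba1; SD), was at 62.0 ± 5.93 RPM in shAjuba2 without passing the threshold (adjusted p = 0.077), and rose from 93.2 ± 6.34 in Control to 526 ± 56.1 RPM in Ajuba OE, where reads of the construct can be included. Markers of colon epithelial cells were all detected (8 of 8, summed level 2901 to 7009 RPM). Their sum was 4851 to 5968 RPM in Control and 5755 to 7009 in Ajuba OE, where 3 of the 8 rose (VIL1, CDH1 and CDX2). It was 2901 to 5495 RPM in shAjuba2, beside 4063 to 4203 in shScrambled. The lowest sum was that of shAjuba2 replicate 2, with KRT8 at 1487 RPM against 2302 and 2720 in replicates 1 and 3. KRT18 was at 1152 RPM there, against 1901 and 2207. VIL1 fell in shAjuba2 by 2.38 on the log2 scale. In shAjuba1 CDH1, KRT8 and KRT18 rose and EPCAM and VIL1 fell. Fibroblast markers summed to 0.531 to 10.99 RPM, most of it PDGFRB, with 3 of 7 below 0.1 RPM in every sample and DCN at 0 in all lines but shAjuba1 (mean 0.00698 RPM). PDGFRB was at 0.440 RPM in Ajuba OE and at 4.34 to 9.68 in the other line means. The part of these differences in the results below was not tested. Endothelial markers summed to 2.24 to 5.41 RPM, with 2 of 4 below 0.1 RPM everywhere. In these bulk samples fewer cells of a type and less RNA per cell cannot be told apart.

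Replicate 2 stood apart in 3 lines. The summed collagen level was 1436 RPM in Control replicate 2 against 966 and 1038 in replicates 1 and 3, and 1298 in Ajuba OE replicate 2 against 920 and 857. In shAjuba2 the summed laminin level was 2583 RPM in replicate 2 against 2019 and 1720. Among the 18 genes with at least 10 RPM in some line, replicate 2 was at a median 1.30 times the mean of the other replicates in Control, 1.37 times in Ajuba OE and 1.16 times in shAjuba2, and 0.918 times in shAjuba1. The excess was larger in GC-rich genes. The 11 genes with transcripts of at least 55% GC had a median ratio of 1.52 in Control, 1.47 in Ajuba OE and 1.32 in shAjuba2, and the 7 genes below 55% GC had 1.06, 0.933 and 0.971. LAMA3, LAMB1 and LAMC1, all below 55% GC, had ratios between 0.891 and 1.09 in these lines, and so did LAMB3 at 59.4% GC. COL4A3 (42.9% GC) and COL4A4 (49.2% GC) went the other way, with ratios of 1.18 to 1.32 and 1.12 to 1.36 in these 3 lines. For the KD lines and Ajuba OE, calls lost with GC content corrected in each sample are given as such, and calls gained are only counted. Between shScrambled and Parental 2 calls were lost with that correction, and between Control and shScrambled 1, and these are not named.

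The lines expressed a short list of these genes strongly. A mean of at least 1 RPM in some line was reached by 22 of 44 collagens and 8 of 12 laminins, and a mean of at least 10 RPM by 11 collagens and 7 laminins. The other 26 genes (22 collagens and 4 laminins) stayed below 1 RPM in every line, 8 of them below 0.1 RPM, among them COL3A1, the partner of type I collagen in soft connective tissue. The shares that follow are of the mean over the 16 samples, and they differed between lines. COL9A3, a chain of the cartilage collagen type IX, held 33.6% of the summed collagen level and was at 311 to 451 RPM in the line means. COL18A1, the source of the angiogenesis inhibitor endostatin, held 16.4%, COL6A1 12.9%, COL7A1 of the anchoring fibrils 12.3%, and COL16A1 9.94%. COL6A1 had a mean of 334 RPM in shAjuba1 and 95.8 in shScrambled, where COL7A1 and COL16A1 were higher at 137 and 105 RPM. Of the laminins, LAMA5 alone held 57.7%, at 548 to 1344 RPM, followed by LAMB2 with 14.7% and LAMC1 with 8.64%.

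**Figure D1:**
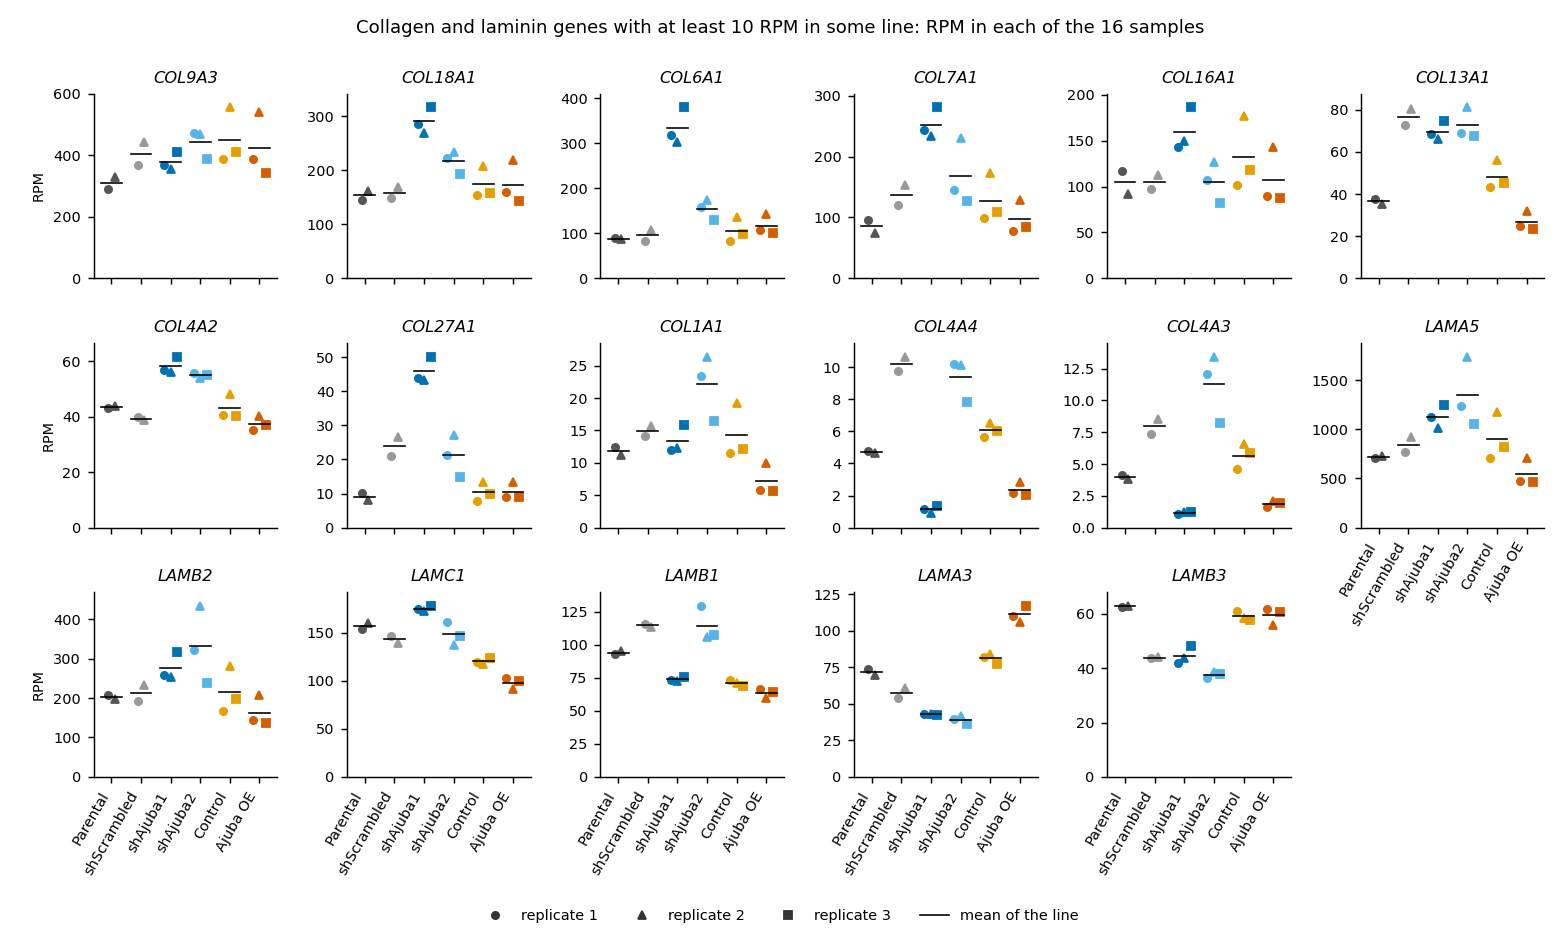
RPM (y axes, linear from 0) of 17 genes with a mean of at least 10 RPM in some line, in each of the 16 samples, with the marker shape giving the replicate and a bar the mean of the line. COL6A1, COL7A1, COL18A1 and COL27A1 are highest in shAjuba1, COL4A3 and COL4A4 are lowest there, and LAMA3 is highest in Ajuba OE.

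From lowest to highest, the summed collagen level was 884 ± 0.884 RPM (SD) for Parental, 1025 ± 238 for Ajuba OE, 1113 ± 134 for shScrambled, 1147 ± 253 for Control, 1321 ± 186 for shAjuba2 and 1646 ± 157 for shAjuba1. Ajuba OE, shScrambled and Control, neighbours in that order, differed by less than their SD. The lowest shAjuba1 sample, 1530 RPM, was above all samples of the other lines. The summed laminin level was 1158 ± 146 RPM for Ajuba OE, 1427 ± 23.6 for Parental, 1504 ± 128 for shScrambled, 1567 ± 297 for Control, 1816 ± 157 for shAjuba1 and 2107 ± 438 for shAjuba2, and Parental, shScrambled and Control differed by less than the SD of Control. The Ajuba OE samples, at 1079, 1326 and 1068 RPM, were below all samples of the other lines, the lowest of which was Control replicate 1 at 1336 RPM. Among the 22 collagens with at least 1 RPM, the highest line mean was that of shAjuba1 for 10, shScrambled for 6, shAjuba2 for 5 and Control for 1, and the lowest was that of Ajuba OE for 10 and Parental for 6. This order of means includes differences that were not called, and it was not computed over all genes.

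Collagen chains that assemble together were mostly expressed at very unequal levels. Levels of different genes are compared here per kb of annotated exon. In type IX collagen, a trimer of 3 different chains, COL9A3 was at 84.1 RPM per kb over the 16 samples, COL9A2 at 0.385, and COL9A1 had at most 1 read in any sample. In type VI collagen, whose microfibrils need all 3 chains, COL6A1 was at 28.2 RPM per kb, COL6A2 at 0.511 and COL6A3 at 0.168. In type IV collagen, COL4A2 was at 2.42 RPM per kb and its usual partner COL4A1 at 0.159. COL4A2 exceeded COL4A1 by 4.17 times per kb in shScrambled and by 45.7 times in Ajuba OE, and COL9A3 exceeded COL9A2 by 142 to 453 times over the lines. COL1A1 of type I collagen was at 1.55 RPM per kb, and COL1A2, which supplies the other chain of that trimer, at 0.0193. COL4A3 and COL4A4 were the exception among these pairs, with a ratio of COL4A4 to COL4A3 per kb between 0.867 and 1.33 in all 6 lines. COL4A5, the chain that joins them, was lower, at 0.0348 RPM per kb beside 0.426 for COL4A3 and 0.459 for COL4A4.

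**Figure D2:**
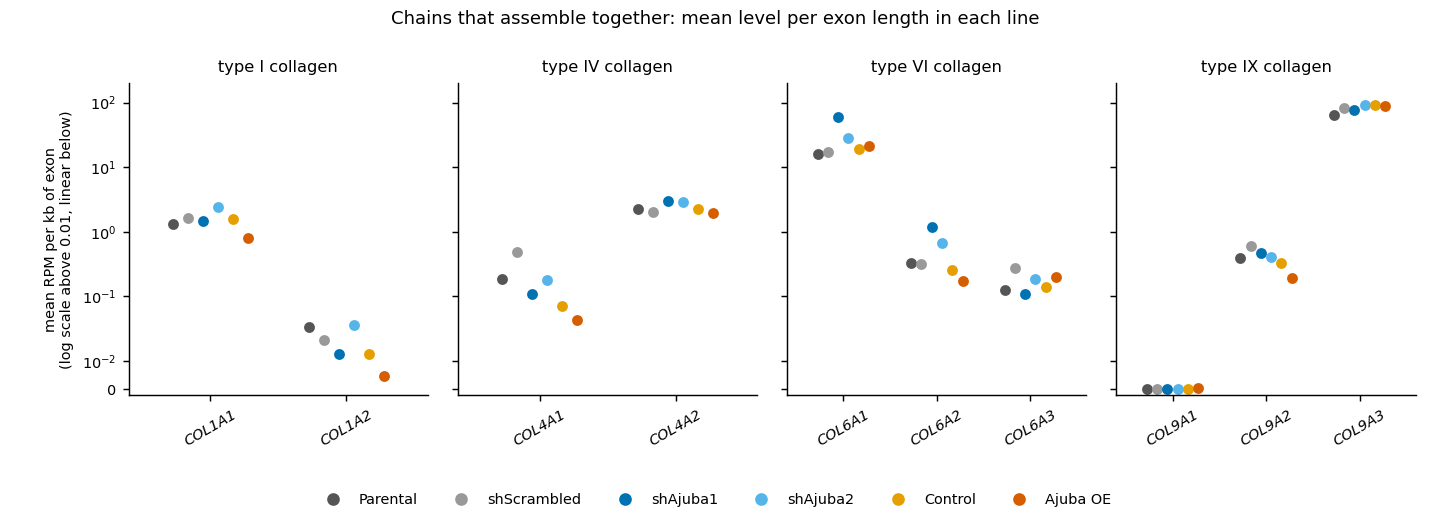
Mean level per kb of annotated exon (y axis, RPM per kb, log scale above 0.01 and linear below) of the chains of type I, IV, VI and IX collagen, 1 point per line. In each type a single chain (COL1A1, COL4A2, COL6A1 or COL9A3) lies above its partners in all 6 lines, and COL9A1 lies at or near 0.

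Most of the genes that could be tested differed among the 6 lines. In edgeR's quasi-likelihood test of any difference, with Benjamini-Hochberg adjustment over all genes, 35 of the 43 collagens and laminins that passed the filter on low counts were called at an adjusted p under 0.05, against 45.7% of all genes tested. LAMA3 had the F value ranked 134 of 23597 genes, followed among these genes by COL4A4 (rank 190), COL4A3 (295) and COL4A1 (328). COL9A3 and COL16A1, among the most abundant collagens, did not pass (adjusted p = 0.204 and 0.148).

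In shAjuba1 a large share of the genes moved against shScrambled, in both directions. Of 37 genes tested, 15 rose, against 18.2% of all genes tested, and 10 fell, against 20.2%. The median log2 fold change was −0.11 over the 27 collagens and 0.14 over the 10 laminins, beside −0.01 over all genes. The genes that rose included both short chains of type VI collagen, COL6A1 and COL6A2, the anchoring fibril gene COL7A1, COL18A1, COL16A1, COL27A1, LAMA5 and LAMB2. The genes that fell included the type IV chains COL4A1, COL4A3, COL4A4 and COL4A5, the long type VI chain COL6A3, LAMB1 and LAMA3. GC content moved with direction. Of the 21 genes with at least 55% GC, 12 rose and 1 (COL2A1) fell, and of the 16 genes below 55% GC, 3 rose and 9 fell. Spearman's rho of the log2 fold change with GC content was 0.51 over these 37 genes and 0.28 over 20727 genes. With GC content corrected in each sample, 16 rose and 15 fell, with 9851 of all genes called beside 8103 in the main fit.

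In shAjuba2 few passed the threshold. Of 42 genes tested, 4 rose against shScrambled (COL5A1, COL20A1, COL21A1 and COL26A1), with 3.19% of all genes tested called higher, and 2 fell (COL4A1 and LAMA3), with 4.44% called lower. All 4 genes called in both KD lines had the same direction in both: COL20A1 and COL26A1 rose and COL4A1 and LAMA3 fell. The share of all genes with such agreement was not computed. With GC content corrected, 2 genes rose and 3 fell in shAjuba2, and COL20A1 and COL26A1 no longer passed there (adjusted p = 0.052 and 0.086). Against Parental, the values in shAjuba2 were 0.997 for COL20A1, −0.45 for COL26A1, −0.10 for COL4A1 and −0.93 for LAMA3. Of these LAMA3 alone passed (adjusted p = 0.0097). The main comparisons of both KD lines share the shScrambled samples, and leaving out 1 of these leaves a single control sample. Left-out samples moved the calls over all genes too. In shAjuba2 these numbered 1713 in the main fit, 492 without shAjuba2 replicate 1 and 4983 without shAjuba2 replicate 2. No gene of the set passed when either shScrambled replicate was left out, 1 passed without shAjuba2 replicate 1, and 18 passed without replicate 2.

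The KD lines were also compared with each other directly. Of 40 genes tested, 7 were higher in shAjuba1 than in shAjuba2, against 9.47% of all genes tested, and 12 were lower, against 10.1%. The higher genes were COL5A3, COL6A1, COL6A2, COL16A1, COL18A1, COL26A1 and COL27A1. The lower genes included COL4A3, COL4A4, COL21A1, COL2A1, COL5A1 and COL1A1, and no laminin was higher in shAjuba1. COL12A1 and COL1A2, both below 1 RPM in every line, were lower in shAjuba1 by 1.44 ± 0.33 and 1.43 ± 0.34. COL12A1, COL1A2 and COL21A1 passed the filter on low counts through shAjuba2 alone, so their direction here was not independent of the filter.

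In Ajuba OE collagens fell and 1 laminin chain rose. Of 39 genes tested against Control, 5 fell (COL4A3, COL4A4, COL8A2, COL13A1 and COL21A1), against 3.03% of all genes tested, and LAMA3 alone rose, against 2.39%. The median log2 fold change was −0.34 over 30 collagens and −0.22 over 9 laminins, beside −0.01 over all genes. Without replicate 2 of both lines 9 fell and 1 rose, and with GC content corrected 8 fell and 1 rose. Over all genes 1701 and 1516 were called in these fits, beside 1147 in the main fit.

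**Figure D3:**
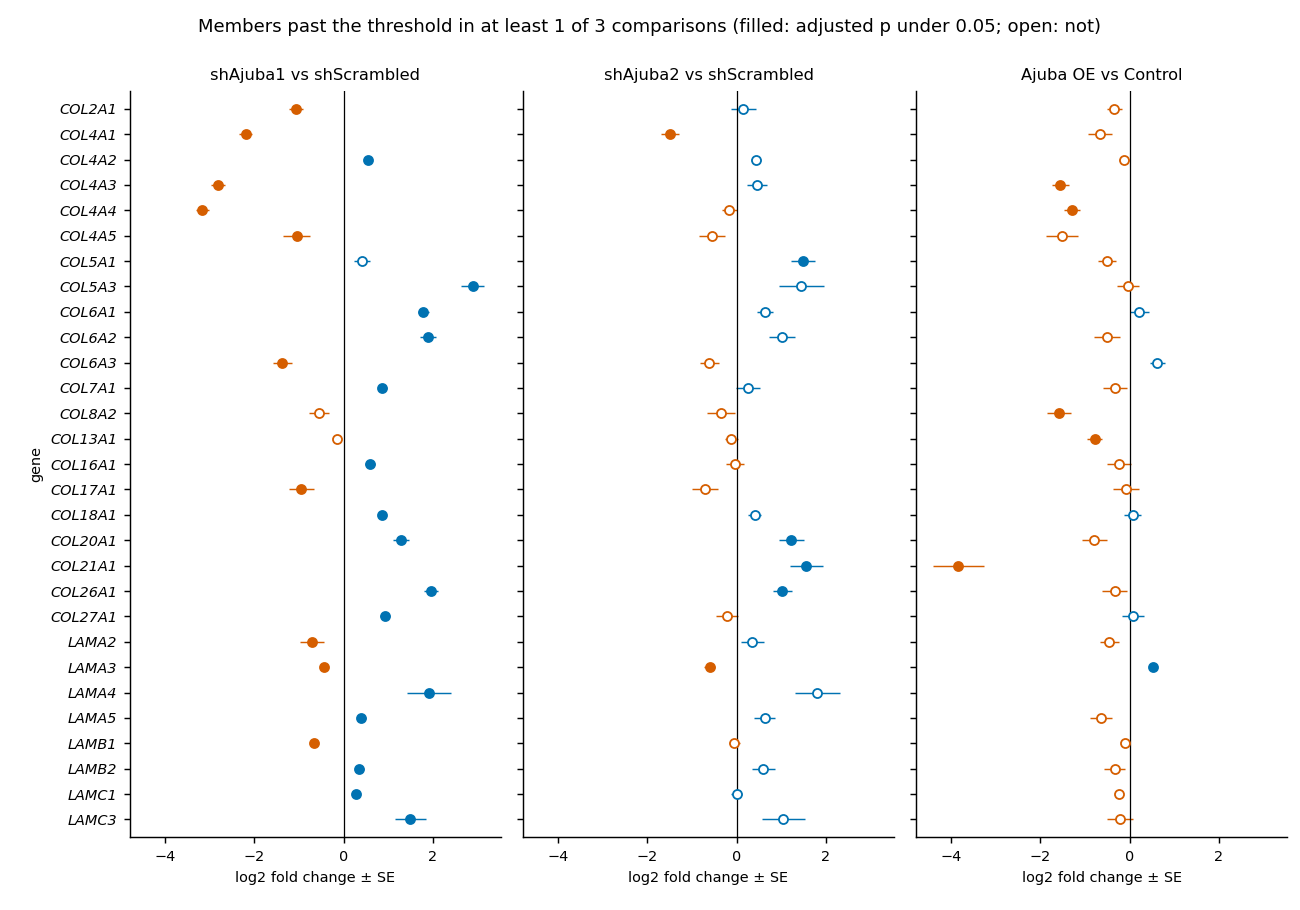
Log2 fold change ± SE (x axes) of the 29 genes called in at least 1 of 3 comparisons, with filled points for an adjusted p under 0.05 and open points for the rest. COL4A3 and COL4A4 lie left of 0 with filled points in both shAjuba1 and Ajuba OE, and LAMA3 is the only gene filled in all 3 panels.

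Among the 4 genes with the highest F in the test over the 6 lines, 3 were type IV collagens. The genes lie in head-to-head pairs that share a start region: COL4A2 and COL4A1 on chromosome 13, and COL4A3 and COL4A4, whose chains join COL4A5 in the mature membrane of kidney, lung and other epithelia, on chromosome 2. In RefSeq (GRCh38.p14) the starts of COL4A2 and COL4A1 lie 127 bases apart and those of COL4A3 and COL4A4 419 bases apart. The 300-base windows around the 4 starts, 250 bases before to 50 after, are shown because COL4A3 and COL4A4 fell in the same comparisons and COL4A1 and COL4A2 did not. Capitals mark GGGCGG or its reverse complement, the core of an Sp1 site, and each window is written 5′ to 3′ along its own gene.
COL4A1, chr13:110307108-110307407, minus strand: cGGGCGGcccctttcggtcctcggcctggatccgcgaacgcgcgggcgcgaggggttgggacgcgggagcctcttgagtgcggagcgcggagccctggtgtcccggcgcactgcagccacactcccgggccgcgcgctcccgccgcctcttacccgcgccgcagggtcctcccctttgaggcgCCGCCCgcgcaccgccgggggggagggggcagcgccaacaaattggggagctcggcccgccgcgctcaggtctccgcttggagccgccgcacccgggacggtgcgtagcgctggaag
COL4A2, chr13:110307034-110307333, plus strand: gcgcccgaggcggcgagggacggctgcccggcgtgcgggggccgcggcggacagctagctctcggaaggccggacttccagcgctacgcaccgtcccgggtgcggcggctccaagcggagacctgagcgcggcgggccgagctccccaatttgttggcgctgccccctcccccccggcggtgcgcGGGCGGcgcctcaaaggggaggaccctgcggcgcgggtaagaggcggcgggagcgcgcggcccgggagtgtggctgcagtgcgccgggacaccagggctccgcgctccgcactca
COL4A3, chr2:227164374-227164673, plus strand: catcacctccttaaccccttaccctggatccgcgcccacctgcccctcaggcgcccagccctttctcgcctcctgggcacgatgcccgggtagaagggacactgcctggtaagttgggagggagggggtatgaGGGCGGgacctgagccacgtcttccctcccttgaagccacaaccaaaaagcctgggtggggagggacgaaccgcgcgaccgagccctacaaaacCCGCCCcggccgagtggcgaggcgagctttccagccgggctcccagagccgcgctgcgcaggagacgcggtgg
COL4A4, chr2:227164156-227164455, minus strand: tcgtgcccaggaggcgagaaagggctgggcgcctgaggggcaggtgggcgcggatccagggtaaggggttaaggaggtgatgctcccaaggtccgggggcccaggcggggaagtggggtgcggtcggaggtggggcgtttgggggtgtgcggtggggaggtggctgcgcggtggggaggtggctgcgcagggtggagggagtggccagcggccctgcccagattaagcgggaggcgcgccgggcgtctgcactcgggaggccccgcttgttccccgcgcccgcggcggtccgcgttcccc
The COL4A1 and COL4A2 windows share 226 bases, read on opposite strands, and are 76.7% and 77.7% GC. The COL4A3 and COL4A4 windows share 82 bases and are 67.7% and 74.0% GC. GGGCGG was found on either strand 2 times in the COL4A1 and COL4A3 windows, and 1 time in that of COL4A2. The COL4A4 window held none, and none of the 4 held GGAATG, the core that TEAD factors bind, or the AP-1 motif TGANTCA. Windows were given for 41 of the 56 genes (55 windows), of which 58.2% held GGGCGG, beside 45.0% of all 35116 windows. GGAATG was in 7.27% of them, beside 14.03% of all windows, and TGANTCA in 5.45%, beside 7.71%. These matches are a description of the letters in the windows.

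COL4A3 (ENSG00000169031, chr2:227164624-227314792) was at 7.38 and 8.55 RPM in shScrambled and at 1.05, 1.19 and 1.21 RPM in shAjuba1. It was at 12.1, 13.5 and 8.25 RPM in shAjuba2, 4.16 and 3.83 in Parental, 4.57, 6.55 and 5.87 in Control, and 1.59, 2.06 and 1.91 in Ajuba OE. All samples of shAjuba1 and Ajuba OE thus lay below all samples of the other 4 lines. The log2 fold change was −2.82 ± 0.15 (SE; adjusted p = 4.2e-08) in shAjuba1 and −1.55 ± 0.19 (adjusted p = 0.0039) in Ajuba OE, and shAjuba1 was lower than shAjuba2 by 3.25 on the log2 scale (adjusted p = 3e-05).

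COL4A4 (ENSG00000081052, chr2:227002714-227164453) was lowest in the same lines. It was at 9.77 and 10.7 RPM in shScrambled, 1.15, 0.93 and 1.35 in shAjuba1, 10.2, 10.2 and 7.84 in shAjuba2, 4.79 and 4.65 in Parental, 5.68, 6.55 and 6.03 in Control, and 2.18, 2.88 and 2.06 in Ajuba OE. Here too shAjuba1 and Ajuba OE did not overlap any other line. The log2 fold change was −3.16 ± 0.15 (adjusted p = 2.1e-08) in shAjuba1 and −1.29 ± 0.17 (adjusted p = 0.0053) in Ajuba OE. In shScrambled the fitted levels of COL4A3 and COL4A4 were 2 and 2.16 times those in Parental. Against Parental, the fall in shAjuba1 was 1.83 for COL4A3 and 2.06 for COL4A4 on the log2 scale. Both falls in shAjuba1 and both in Ajuba OE passed under each of the alternatives tried.

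COL4A1 (ENSG00000187498, chr13:110148963-110307157), the widespread alpha 1 chain, was high in shScrambled alone. Its levels were 7.05 and 7.29 RPM in shScrambled, 2.94 and 2.46 in Parental, 1.74, 1.36 and 1.60 in shAjuba1, 2.99, 2.86 and 2.02 in shAjuba2, 0.96, 0.98 and 1.14 in Control, and 0.46, 0.81 and 0.60 in Ajuba OE. It fell by 2.19 ± 0.15 on the log2 scale in shAjuba1 (adjusted p = 2.5e-07) and by 1.50 ± 0.20 in shAjuba2 (adjusted p = 0.0066). With Parental as the control line the value was −0.79 (adjusted p = 0.0040) in shAjuba1 and −0.10 (adjusted p = 0.76) in shAjuba2. COL4A1 was also the only gene of the set called between Control and Parental, where it was lower by 1.38 ± 0.18 (adjusted p = 0.040). That call was lost without either Parental replicate or without Control replicate 1 or 3 (adjusted p = 0.075 to 0.34). Control was lower than shScrambled by 2.79 ± 0.15 (adjusted p = 0.00045). The 3 lines without altered Ajuba thus spanned 1.03 to 7.17 RPM in their means.

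COL4A2 (ENSG00000134871, chr13:110305812-110513209), the alpha 2 chain, differed less between lines than its neighbour. It was at 40.0 and 38.7 RPM in shScrambled, 43.2 and 43.9 in Parental, 57.0, 56.3 and 61.8 in shAjuba1, 56.01, 53.9 and 54.99 in shAjuba2, 40.8, 48.2 and 40.4 in Control, and 35.1, 40.5 and 37.0 in Ajuba OE. The samples of both KD lines lay above all others. The rise in shAjuba1 was 0.55 ± 0.09 (adjusted p = 0.00028), opposite in direction to that of COL4A1. The counts are per gene, so transcripts starting elsewhere in COL4A2 are not separated from those of the shared start region. COL4A5 fell in shAjuba1 by 1.05 ± 0.31 (adjusted p = 0.017) from a line mean below 1 RPM, a call lost without either shScrambled replicate (adjusted p = 0.057 and 0.155). COL4A6 stayed below 0.1 RPM in every line.

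**Figure D4:**
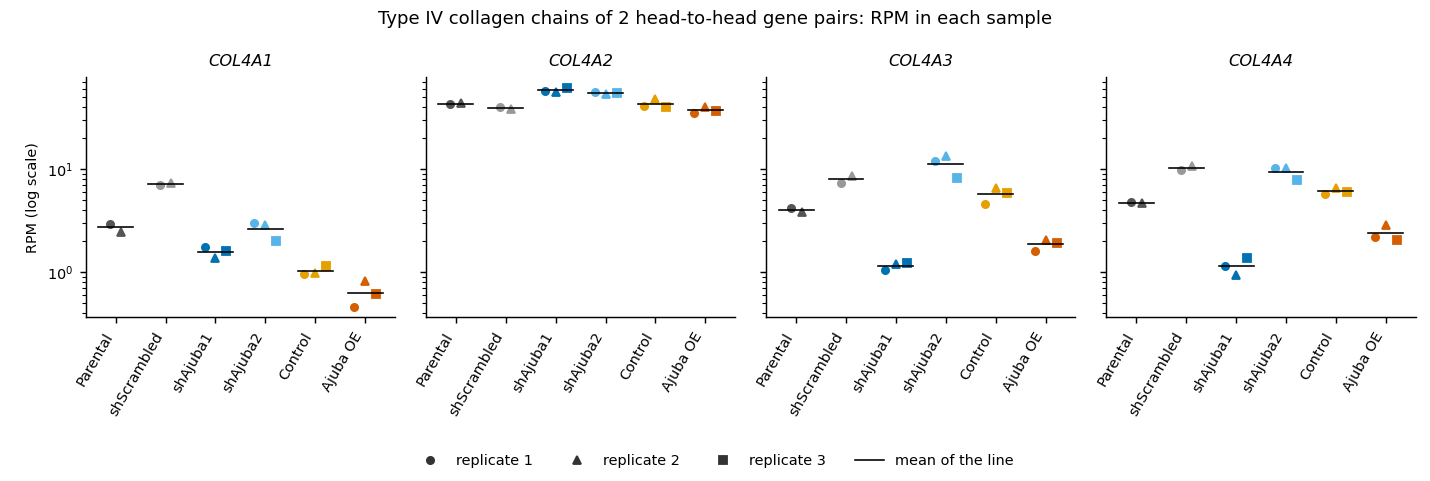
RPM in each sample (y axis, log scale) of COL4A1, COL4A2, COL4A3 and COL4A4, with the marker shape giving the replicate and a bar the mean of the line. COL4A3 and COL4A4 are both lowest in shAjuba1, then in Ajuba OE, COL4A1 is highest in shScrambled, and COL4A2 stays between 35.1 and 61.8 RPM.

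Of the chains of type VI collagen, a beaded filament around cells and basement membranes, COL6A1 and COL6A2 rose in shAjuba1 and COL6A3 fell. COL6A1 (ENSG00000142156, chr21:45981770-46005050) was at 83.6 and 108 RPM in shScrambled and 319, 303 and 380 RPM in shAjuba1. It was at 159, 173 and 131 RPM in shAjuba2, 88.8 and 86.9 in Parental, 82.8, 137 and 97.6 in Control, and 107, 143 and 100 in Ajuba OE. No sample of another line reached the shAjuba1 levels, and the log2 fold change was 1.79 ± 0.12 (adjusted p = 3.4e-07). COL6A2, its neighbour on chromosome 21, was at 1.34 and 2.01 RPM in shScrambled and 6.01, 6.17 and 7.07 in shAjuba1 (log2 fold change 1.89 ± 0.17, adjusted p = 3.8e-06). COL6A1 and COL6A2 were both higher in shAjuba1 than in shAjuba2, by 1.16 ± 0.15 and 0.90 ± 0.20 (adjusted p = 0.00068 and 0.013). COL6A3, on chromosome 2, was at 4.66 and 7.04 RPM in shScrambled and at 1.72, 2.92 and 2.40 in shAjuba1, a fall of 1.37 ± 0.21 (adjusted p = 0.00028). Parental was at 2.74 and 2.56 RPM, and against Parental the value for COL6A3 was −0.23 (adjusted p = 0.41).

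COL7A1, COL18A1 and COL16A1 rose in shAjuba1 as well. COL7A1, which forms the anchoring fibrils under epithelia, was at 120 and 154 RPM in shScrambled and 244, 234 and 281 RPM in shAjuba1. In shAjuba2 it was at 146, 231 and 128 RPM, with replicate 2 alone near the shAjuba1 samples. Its log2 fold change in shAjuba1 was 0.87 ± 0.11 (adjusted p = 5.7e-05), and 1.54 against Parental, where COL7A1 was at 96.1 and 75.0 RPM. COL18A1, a basement membrane collagen that also carries heparan sulfate, was at 149 and 169 RPM in shScrambled and 287, 269 and 317 in shAjuba1 (0.86 ± 0.09, adjusted p = 1.5e-05). Of its exon bases 18.5% overlap SLC19A1 on the opposite strand, and the strand option of the counting is not given in the sources used here, so these reads may be shared. COL16A1, a collagen found near basement membranes, rose by 0.59 ± 0.11 (adjusted p = 0.0010), from 97.1 and 113 RPM to 143, 150 and 186 RPM. Control replicate 2, at 176 RPM, lay within that range, and in a fit of all 16 samples the adjusted p was 0.11.

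COL13A1, a transmembrane collagen of cell adhesion sites, separated the lines another way. It was at 72.6 and 80.4 RPM in shScrambled, 68.3, 66.1 and 74.6 in shAjuba1 and 68.99, 81.2 and 67.7 in shAjuba2. It was at 37.8 and 35.3 RPM in Parental, 43.2, 56.1 and 45.3 in Control, and 24.7, 31.9 and 23.4 in Ajuba OE. The 3 shRNA lines thus overlapped one another and lay above the other lines, and Ajuba OE lay below all. The fall in Ajuba OE was 0.79 ± 0.16 on the log2 scale (adjusted p = 0.035). It did not pass when any 1 sample except Ajuba OE replicate 2 was left out (adjusted p = 0.070 to 0.15), nor against Parental (−0.40, adjusted p = 0.19). shScrambled exceeded Parental by 1.06 ± 0.08 (adjusted p = 6.2e-10). COL17A1, the transmembrane collagen of hemidesmosomes, stayed below 1 RPM and fell in shAjuba1 by 0.95 ± 0.29 (adjusted p = 0.019). Against Parental its value was 0.21, the opposite sign (adjusted p = 0.65), and its adjusted p was 0.088 and 0.12 without either shScrambled replicate.

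Fibrillar collagens, the rope-forming types, were low in these cells and split between the KD lines. COL27A1 was at 21.0 and 26.6 RPM in shScrambled, 44.004, 43.4 and 50.2 in shAjuba1, 21.3, 27.3 and 14.9 in shAjuba2, 10.1 and 8.10 in Parental, 7.81, 13.4 and 9.93 in Control, and 8.97, 13.3 and 9.08 in Ajuba OE. It rose in shAjuba1 by 0.93 ± 0.11 (adjusted p = 4e-05) and by 2.31 against Parental. COL5A3 rose from 0.36 and 0.89 RPM in shScrambled to 4.79, 4.51 and 5.52 RPM in shAjuba1, 2.89 ± 0.25 on the log2 scale (adjusted p = 2.5e-06). COL5A1, another chain of type V collagen, rose in shAjuba2 instead, from 1.37 and 1.63 to 5.44, 4.51 and 3.15 RPM (1.48 ± 0.27, adjusted p = 0.020), and was at 1.84, 2.22 and 2.10 RPM in shAjuba1. COL5A1 was lower in shAjuba1 than in shAjuba2 by 1.04 ± 0.22 and COL5A3 higher by 1.48 ± 0.30 (adjusted p = 0.0091 and 0.0078). COL2A1, the main collagen of cartilage, fell in shAjuba1 by 1.06 ± 0.15 (adjusted p = 0.00016), from 5.596 and 6.94 to 3.04, 2.56 and 3.51 RPM. COL1A1 was at 14.2 and 15.7 RPM in shScrambled, 23.4, 26.4 and 16.4 in shAjuba2, 11.4, 19.2 and 12.2 in Control, and 5.73, 10.001 and 5.71 RPM in Ajuba OE, and was called only between the KD lines, where shAjuba1 was lower by 0.68 ± 0.19, and between shScrambled and Parental. These COL1A1 calls did not pass in 6 of 13 and 5 of 11 alternatives (adjusted p up to 0.13 and 0.60). COL11A2 had line means of 2.67 to 5.97 RPM.

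Among the remaining collagens COL9A3 showed no call in any KD or OE comparison. Its samples ran from 291 to 556 RPM, with the highest values, 556 and 541, in replicate 2 of Control and Ajuba OE. COL9A2 had line means of 0.814 to 2.49 RPM. COL20A1, a fibril-associated collagen, rose in both KD lines, from 1.04 and 0.93 RPM in shScrambled to 2.32, 2.46 and 2.48 in shAjuba1 (1.28 ± 0.18, adjusted p = 0.00014) and 2.24, 3.02 and 1.87 in shAjuba2 (1.22 ± 0.28, adjusted p = 0.040). The call in shAjuba2 was lost with GC content corrected (1.01, adjusted p = 0.052) and against Parental (0.997, adjusted p = 0.060). COL26A1 rose in both as well, by 1.95 ± 0.16 and 1.02 ± 0.22, from 1.59 and 1.47 RPM in shScrambled. Parental, at 3.74 and 4.63 RPM, was also higher than shScrambled, and against Parental COL26A1 was at 0.48 in shAjuba1 (adjusted p = 0.021) and −0.45 in shAjuba2 (adjusted p = 0.18). With GC content corrected its value in shAjuba2 was 0.79 (adjusted p = 0.086). COL8A2, a short-chain network collagen, fell in Ajuba OE from 1.05, 1.102 and 0.93 RPM in Control to 0.37, 0.21 and 0.40 RPM (1.58 ± 0.27 lower, adjusted p = 0.016). That call was lost without any of the 3 Control replicates or Ajuba OE replicate 1 (adjusted p = 0.051 to 0.072). COL21A1 had 26, 27 and 23 reads in Control and 2, 4 and 0 reads in Ajuba OE (−3.84 ± 0.57, adjusted p = 0.0088), a fitted value that rests on few reads. COL8A2 and COL21A1 passed the filter on low counts through Control alone, so the direction of these calls was not independent of the filter. COL21A1 had 7 and 18 reads in shScrambled, 49, 40 and 32 in shAjuba2, and 3, 1 and 3 in shAjuba1. Its rise in shAjuba2 was 1.56 ± 0.37 (adjusted p = 0.047), and 0.13 against Parental (adjusted p = 0.77). Against shScrambled it passed the filter through shAjuba2 alone, so that direction was not independent of the filter either.

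LAMA3 and LAMB3 supply the alpha and beta chains of the laminin under epithelial hemidesmosomes. LAMA3 fell in both KD lines and rose in Ajuba OE, and it was the only gene of the set called in all 3 comparisons. LAMA3 (ENSG00000053747, chr18:23689453-23956222) was at 54.1 and 60.7 RPM in shScrambled, 43.0, 43.2 and 42.1 in shAjuba1 and 39.8, 41.3 and 36.0 in shAjuba2. It was at 82.2, 84.3 and 77.4 RPM in Control, 110, 106 and 117 in Ajuba OE, and 73.6 and 69.5 in Parental. The samples of both KD lines lay below all others and those of Ajuba OE above all others. The log2 fold change was −0.44 ± 0.09 (adjusted p = 0.0016) in shAjuba1, −0.60 ± 0.13 (adjusted p = 0.032) in shAjuba2 and 0.52 ± 0.09 (adjusted p = 0.017) in Ajuba OE. The call in shAjuba2 was lost without either shScrambled replicate or without shAjuba2 replicate 1 or 3 (adjusted p = 0.064 to 0.32), and the one in Ajuba OE without replicate 1 or 3 of either line (adjusted p = 0.059 to 0.13). Against Parental all 3 passed, at −0.77, −0.93 and 0.69. The control lines differed too, with Control above shScrambled by 0.51 ± 0.11 (adjusted p = 0.040) and shScrambled below Parental by 0.32 ± 0.08 (adjusted p = 0.0041).

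The RefSeq window of LAMA3 lies at a start inside the gene as GENCODE draws it. It held the AP-1 motif TGANTCA 2 times and GGGCGG, on either strand, 1 time, all in capitals. The AP-1 motif was not particular to LAMA3 and was found in 3 of the 55 windows. A window of LAMB3 held 1 match, and a window of COL10A1, below 1 RPM in every line, held 2.
LAMA3, chr18:23872770-23873069, plus strand: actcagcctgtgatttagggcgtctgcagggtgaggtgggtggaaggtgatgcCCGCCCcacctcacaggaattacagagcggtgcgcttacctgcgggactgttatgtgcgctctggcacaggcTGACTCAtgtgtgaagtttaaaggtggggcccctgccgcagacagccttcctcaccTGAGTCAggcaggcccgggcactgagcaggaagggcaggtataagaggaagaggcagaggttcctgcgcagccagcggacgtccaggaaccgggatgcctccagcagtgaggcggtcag
The counts are per gene and do not say from which start the LAMA3 transcripts came.

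LAMB3 had no call in the 3 comparisons with altered Ajuba. LAMB3 was at 43.9 and 43.98 RPM in shScrambled, 42.1, 43.9 and 48.1 in shAjuba1, 36.5, 38.5 and 37.8 in shAjuba2, 61.2, 58.5 and 58.0 in Control, 61.9, 55.9 and 60.6 in Ajuba OE, and 62.6 and 63.0 in Parental. Control and Ajuba OE overlapped in LAMB3, and shAjuba2 lay below all other samples. LAMB3 was lower in shScrambled than in Parental by 0.52 ± 0.08 (adjusted p = 1.6e-05). The ratio of LAMA3 to LAMB3 per kb ran from 0.307 in shAjuba1 and 0.333 in shAjuba2 to 0.599 in Ajuba OE.

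**Figure D5:**
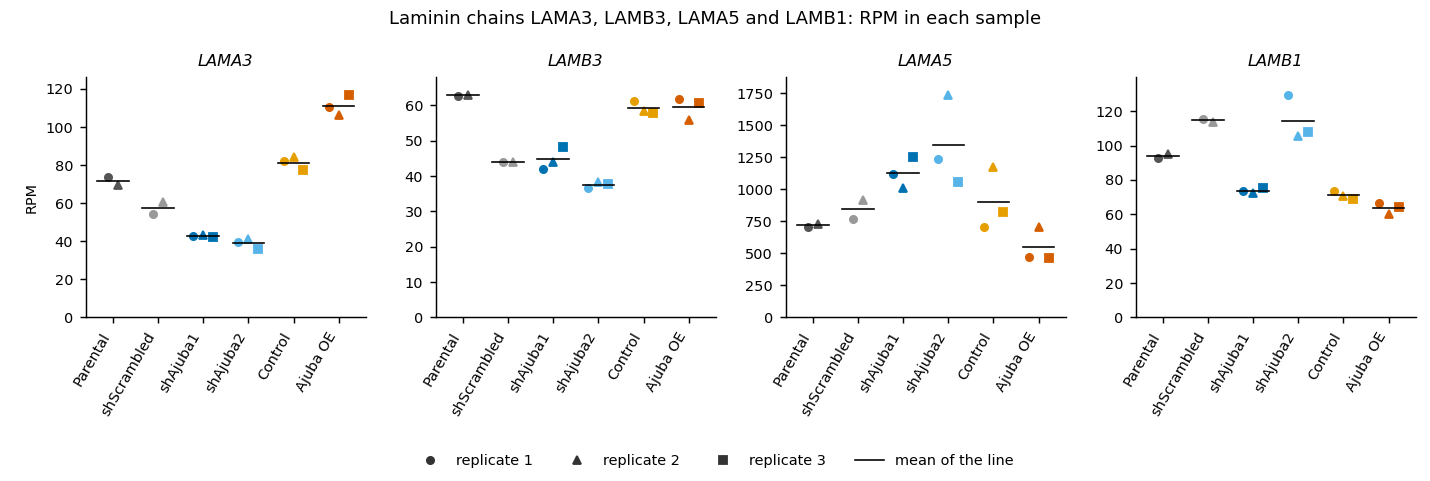
RPM in each sample (y axes, linear from 0) of the laminin chains LAMA3, LAMB3, LAMA5 and LAMB1, with the marker shape giving the replicate and a bar the mean of the line. LAMA3 is lowest in both KD lines and highest in Ajuba OE, LAMB3 overlaps between Control and Ajuba OE, LAMB1 is lower in shAjuba1 than in shAjuba2, and replicate 2 is the highest LAMA5 sample of shAjuba2, Control and Ajuba OE.

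LAMA5, LAMB1, LAMB2 and LAMC1 are the chains of laminin-511 and laminin-521, common laminins of adult epithelium. LAMA5 (ENSG00000130702, chr20:62307955-62367312) was at 768 and 921 RPM in shScrambled, 1122, 1010 and 1249 in shAjuba1, 1239, 1738 and 1056 in shAjuba2, 707 and 733 in Parental, 706, 1173 and 819 in Control, and 475, 705 and 464 in Ajuba OE. All KD samples lay above both shScrambled samples. The Ajuba OE samples lay below all Control samples, replicate 2 by less than 1 RPM. The rise in shAjuba1 was 0.40 ± 0.11 (adjusted p = 0.011), and 0.20 (adjusted p = 0.038) with GC content corrected. It was lost without shScrambled replicate 1 (adjusted p = 0.14) and in a fit of all 16 samples (adjusted p = 0.26). LAMB2 rose in shAjuba1 by 0.36 ± 0.11 (adjusted p = 0.021), from 193 and 233 to 259, 252 and 316 RPM, and by 0.22 (adjusted p = 0.015) with GC content corrected. LAMB2 did not pass in a fit of all 16 samples (adjusted p = 0.34), nor without shScrambled replicate 1, where the value was 0.25. LAMB1, the alternative beta chain, fell in shAjuba1 by 0.65 ± 0.08 (adjusted p = 2.8e-05), from 116 and 114 to 73.4, 72.4 and 75.6 RPM, while shAjuba2 stayed at 130, 106 and 108 RPM. Control was at 73.5, 70.8 and 69.1 RPM and Ajuba OE at 66.6, 59.9 and 64.2. LAMB1 was lower in Control than in shScrambled by 0.68 ± 0.09 (adjusted p = 0.010). DLD on the opposite strand overlaps 1.61% of the LAMB1 exon bases, and its counts were 130% of those of LAMB1. ADRM1 on the opposite strand overlaps 1.71% of the LAMA5 exon bases, with counts at 23.2% of those of LAMA5. The strand option of the counting is not given, so reads in these overlaps may be shared. LAMC1 rose in shAjuba1 by 0.28 ± 0.08 (adjusted p = 0.012), from 147 and 140 to 175, 173 and 178 RPM. Without shScrambled replicate 2 its adjusted p was 0.13, without shAjuba1 replicate 1 it was 0.066, and against Parental the value was 0.13 (adjusted p = 0.18).

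The other laminins were scarce. LAMA2, the alpha chain of muscle, was at 1.07 and 0.76 RPM in shScrambled and 0.59, 0.53 and 0.52 in shAjuba1, a fall of 0.71 ± 0.26 (adjusted p = 0.048) that did not pass in 8 of 13 alternatives, among them the GC-corrected fit (−0.59, adjusted p = 0.076), and that was −0.45 (adjusted p = 0.34) without shScrambled replicate 1. LAMA4, the alpha chain of vessel walls, had 7 and 3 reads in shScrambled and 25, 10 and 17 in shAjuba1 (1.92 ± 0.49, adjusted p = 0.0082). Without shScrambled replicate 2 the LAMA4 value was 1.196 (adjusted p = 0.154). It had 24, 15 and 21 reads in shAjuba2 and 0, 1 and 0 in Ajuba OE, where it was not tested. LAMC3 had 6 and 13 reads in shScrambled and 27, 22 and 22 in shAjuba1 (1.49 ± 0.35, adjusted p = 0.0050), with a value of 0.77 against Parental (adjusted p = 0.11). Against shScrambled, LAMA4 and LAMC3 passed the filter on low counts through shAjuba1 alone. The direction of these calls was thus not independent of the filter.

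The control lines showed how far these genes differed where Ajuba was not targeted. Between shScrambled and Parental 13 of 39 genes tested were higher, against 15% of all genes tested, and 6 were lower, against 15.6%. The higher genes included COL27A1 (1.40 ± 0.12), COL4A1 (1.41 ± 0.15), COL6A3 (1.16 ± 0.18), COL4A4 (1.11 ± 0.13), COL13A1 and COL4A3. The lower genes included COL14A1 (−3.50 ± 0.75, on few reads), COL21A1, COL26A1 (−1.47 ± 0.19), LAMB3 and LAMA3. COL14A1 and COL21A1 passed the filter on low counts through Parental alone, so their direction was not independent of the filter. Between Control and Parental edgeR called no gene higher, against 0.0508% of all genes tested, and COL4A1 alone lower, against 0.319%. At an unadjusted p under 0.05, 7 of 41 were higher and 8 lower. The share of all genes at that threshold was not computed, so no excess can be read from these counts. DESeq2 called none higher and 1 lower, with 469 of all genes called. Between Control and shScrambled 3 of 39 were higher, LAMA3 and LAMB3 among them, against 2.15% of all genes tested, and 8 were lower, among them COL4A1, COL27A1 and COL13A1, against 3.65%. Only 1 gene was called without either shScrambled replicate or without Control replicate 3, and COL4A1 was the only one of the 11 called under every alternative tried.

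Genes that make, process, bind or break down these proteins moved in part of each list. Of all genes tested, 18.2% were called higher and 20.2% lower in shAjuba1. For shAjuba2 these shares were 3.19% and 4.44%, and for Ajuba OE 2.39% and 3.03%. Of 17 enzymes and chaperones of collagen making, 5 rose and 3 fell in shAjuba1, 3 rose and 1 fell in shAjuba2, and none rose and 2 fell in Ajuba OE. SERPINH1, the collagen chaperone HSP47, rose by 1.05 ± 0.09 in shAjuba1 and 0.86 ± 0.19 in shAjuba2. P3H2, a prolyl 3-hydroxylase of basement membrane collagen, rose by 1.63 ± 0.11 and 0.97 ± 0.19 in the KD lines and fell by 1.73 ± 0.19 in Ajuba OE (adjusted p = 2.7e-07, 0.025 and 0.0024). Line means of P3H2 were 10.3 RPM in Parental, 6.34 in shScrambled, 19.8 in shAjuba1 and 12.9 in shAjuba2. Those of SERPINH1 were 257, 190, 398 and 356 RPM in the same order. P4HA3, a prolyl 4-hydroxylase subunit, fell in Ajuba OE by 2.22 ± 0.19.

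Of the genes of collagen processing and cross-linking, 1 rose and 6 fell of 12 tested in shAjuba1, none rose and 3 fell of 11 in shAjuba2, and 2 rose and 2 fell of 11 in Ajuba OE. The collagen-propeptide protease ADAMTS14 fell by 1.28 ± 0.10 and 0.98 ± 0.22 in the KD lines, and the lysyl oxidase LOXL4 by 0.59 ± 0.09 and 0.82 ± 0.12. TGM2, a transglutaminase that cross-links matrix proteins, fell by 0.76 ± 0.11 in Ajuba OE. Of other basement membrane proteins, 3 rose and 4 fell of 10 tested in shAjuba1, 1 of 11 fell in shAjuba2 (NTN4, −1.59 ± 0.34), and 1 of 10 fell in Ajuba OE (FN1, −0.61 ± 0.09). NTN4 had line means of 3.40 RPM in shScrambled, 1.45 in Parental and 1.17 in shAjuba2. FN1, fibronectin, fell by 0.59 ± 0.08 in shAjuba1 and NID1, which links laminin to type IV collagen, rose there by 0.62 ± 0.09.

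Of 13 receptors, 2 rose and 5 fell in shAjuba1, 2 rose and 1 fell in shAjuba2, and 1 rose and 1 fell in Ajuba OE. ITGA1, the alpha chain of a type IV collagen integrin, had line means of 94.6 RPM in shScrambled, 34.8 in shAjuba1 and 274 in shAjuba2, and of 115 in Control and 45.3 in Ajuba OE. Its log2 fold changes were −1.46 ± 0.09, 1.49 ± 0.13 and −1.29 ± 0.11 (adjusted p = 1.6e-07, 0.0013 and 0.00074), lower in shAjuba1 and Ajuba OE as were COL4A3 and COL4A4. BCAM, a receptor for LAMA5, rose in the KD lines by 0.67 ± 0.10 and 0.61 ± 0.13. The collagen receptor DDR1 fell in both, by 0.72 ± 0.11 and 0.79 ± 0.15. Of the breakdown genes, 2 rose and 6 fell of 10 tested in shAjuba1, none rose and 3 fell in shAjuba2, and 1 rose and 2 fell in Ajuba OE. The gelatinase MMP9 rose by 3.38 ± 0.24 in shAjuba1 and 1.97 ± 0.31 in Ajuba OE. Against Control, MMP9 passed the filter on low counts through Ajuba OE alone, so that direction was not independent of the filter. MMP2, another gelatinase, fell by 2.60 ± 0.24 and 1.14 ± 0.20 in the KD lines, from a mean of 3.73 RPM in shScrambled, and PLAU, urokinase, by 1.22 ± 0.10 and 1.13 ± 0.19. The PLAU line mean was 19.8 RPM in shScrambled, 8.57 in shAjuba1, 9.31 in shAjuba2 and 4.67 in Parental, so both KD means lay above Parental. The Parental means of ADAMTS14 (33.3 RPM) and DDR1 (191 RPM) also lay near those of the KD lines, which were 27.8 and 35.1 RPM for ADAMTS14 and 187 and 181 RPM for DDR1. TIMP3, an inhibitor of matrix proteases, fell by 1.04 ± 0.15 in shAjuba2 and 0.75 ± 0.12 in Ajuba OE. Its line means were 57.1 RPM in shScrambled, 39.2 in shAjuba1, 28.8 in shAjuba2 and 32.9 in Parental. MMP2 had a Parental mean of 1.93 RPM, beside 0.636 in shAjuba1 and 1.75 in shAjuba2.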

How the data were processed

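SW480 lines were measured by stranded, paired-end mRNA-seq with 50 bp reads. The authors aligned reads to hg38 with HISAT2 and deposited raw counts per Ensembl gene from featureCounts (Rsubread) over exons; tool versions, the strand option and the annotation release are not given in the sources used here. Symbols and coordinates came from GENCODE release 44, and exon lengths and GC content from the same annotation.

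Members and gene lists were chosen with earlier results of these data known. Genes with a line mean of at least 1 RPM and called members were named, and from each other list at most 3 per comparison, by the smallest adjusted p. Counts were tested with edgeR 4.0.16 (R 4.3.3; quasi-likelihood, two-sided, TMM scaling, filterByExpr, only the samples of the lines compared) with Benjamini-Hochberg adjustment over all genes tested and a threshold of 0.05, after a check on simulated counts. DESeq2 1.42.0, which the study used, served as an alternative, with other scalings and filters, left-out replicates, the replicate number as a block, all 16 samples in 1 fit and Parental as control. GC-corrected offsets (lowess span 0.3) and the fit without replicate 2 of Control and Ajuba OE were chosen after seeing the data. Promoter windows were from RefSeq (GRCh38.p14). Protein sequences were not used here, and 1 gene of the set, included in the counts and sums, is not reported here by name.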

Additional observations from a re-analysis of the deposited data

Results flagged for a closer look

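In 16 genes that were called in at least 1 knockdown line against shScrambled, the effects of the 2 knockdown lines differed, by edgeR's direct test of shAjuba1 against shAjuba2 at an adjusted p under 0.05. That test called 19 genes in all; COL1A1, COL1A2 and COL12A1 were called in neither line against shScrambled. Of the 19 calls, 11 passed under every alternative tried. Values are log2 differences, with negative values lower in shAjuba1. Both lines were compared with the same shScrambled samples, so their own fold changes are given only side by side.

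Basement membrane type IV chains and laminins made up 5 of the 16. COL4A3 differed by −3.25 (adjusted p = 3e-05), with −2.82 in shAjuba1 and 0.45 in shAjuba2. COL4A4 differed by −2.98, with −3.16 and −0.17, and COL4A1 by −0.68, with −2.19 and −1.50. LAMB1 differed by −0.58, with −0.65 and −0.05, and LAMA2 by −1.06, with −0.71 and 0.35.

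Other collagens lower in shAjuba1 than in shAjuba2 were COL21A1 (−3.72, not tested in shAjuba1 against shScrambled and 1.56 in shAjuba2), COL2A1 (−1.20, with −1.06 and 0.15), COL5A1 (−1.04, with 0.42 and 1.48) and COL6A3 (−0.73, with −1.37 and −0.61). COL21A1 passed the filter on low counts in this test through shAjuba2 alone.

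Collagens higher in shAjuba1 were COL5A3 by 1.48 (2.89 and 1.45), COL6A1 by 1.16 (1.79 and 0.64), COL27A1 by 1.16 (0.93 and −0.22), COL26A1 by 0.94 (1.95 and 1.02), COL6A2 by 0.90 (1.89 and 1.02), COL16A1 by 0.65 (0.59 and −0.04) and COL18A1 by 0.47 (0.86 and 0.40). The difference did not pass in 5 of 13 alternatives for COL16A1 (adjusted p up to 0.11), 6 for COL18A1 (up to 0.10), 5 for COL4A1 (up to 0.15) and 4 for COL6A3 (up to 0.16). Spearman's rho of this difference with GC content was 0.57 over the 40 genes tested and 0.06 over 21228 genes, and its part in the differences was not tested. With GC content corrected in each sample, 21 of the 40 genes were called, 9 higher and 12 lower, with 5281 of all genes called beside 4232 in the main fit.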

How the results depend on the processing

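Counts of collagen and laminin genes called in shAjuba1 against shScrambled (25), and among all 6 lines (35), stayed within 1.5 times the reported count under all alternatives run with 1 exception: a further condition on size, at least 1 on the log2 scale in either direction, left 13 in shAjuba1. The count in shAjuba2 (6) was 13 with every gene of at least 1 count tested, 10 with DESeq2, 10 with Parental as the control line and 11 with all 16 samples in the fit, and ran from 0 without either shScrambled replicate to 18 without shAjuba2 replicate 2. In Ajuba OE (6) it was 11 with Parental as the control line and 10 without replicate 2 of both lines, and ran from 3 to 8 with 1 sample left out. A fold change of at least 1 on the log2 scale left 11 of 19 between the KD lines, 9 of 19 between shScrambled and Parental, and 3 of 11 between Control and shScrambled. Over all genes that condition left 1590 of 4232, 1075 of 6526 and 613 of 1272 in these comparisons, and 2074 of 8103 in shAjuba1. With all 16 samples, shScrambled against Parental had 10 and Control against Parental 3 instead of 1. Control against Parental had 6 with every gene tested and 0 to 4 with 1 sample left out, and Control against shScrambled had 1 to 14. Against Parental, COL17A1 in shAjuba1 turned to 0.21 and COL26A1 in shAjuba2 to −0.45. Calls over all genes moved in the same fits. In shAjuba2 they numbered 1713 in the main fit, 3210 with every gene tested, 2293 with DESeq2, 1800 with Parental as the control line and 3672 with all 16 samples. In Ajuba OE they numbered 1147, and 412 to 988 with 1 sample left out. They were 1538 there with Parental as the control line and 1701 without replicate 2 of both lines. With all 16 samples, shScrambled against Parental had 1696 instead of 6526 and Control against Parental 530 instead of 80. With every gene tested, Control against Parental had 1947. The causes were not tested.

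The labels do not say that equal replicate numbers are pairs, and the main fits did not pair them. Deviations of equal-numbered samples correlated at 0.10, 0.50 and −0.05 for Ajuba OE and Control, where the larger value is that of replicate 2. In the other comparisons the correlations ran from −0.13 to 0.23. A replicate block in the fit gave 17 calls in shAjuba2 and 18 in Ajuba OE, and the other counts stayed within 1.5 times. Over all genes the block gave 5377 calls in shAjuba2 instead of 1713, and 5140 in Ajuba OE instead of 1147. What equal replicate numbers share was not tested.

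Over 1092 refitted fold changes of called genes, 913 kept their direction and call, 177 lost the call and 2 turned. Of the calls, 15 of 25 in shAjuba1, 0 of 6 in shAjuba2, 3 of 6 in Ajuba OE and 11 of 19 between the KD lines passed under every alternative. With 2 or 3 samples a line, and low counts in 26 of the 56 genes, a missing call does not show that levels were alike.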
